A study of Mus musculus with 10 samples.

Results

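Small leucine-rich proteoglycans (SLRPs) are secreted proteins of the extracellular matrix, and 9 of them were followed in the pressure-overloaded mouse heart. The members were the genes Bgn, Dcn, Aspn, Lum, Fmod, Prelp, Omd, Kera and Ogn, and they were chosen by gene symbol. They were read by 10 of the 26423 probes of the array, which carry 19942 gene symbols. Male C57BL/6J mice, 8 weeks old, were anaesthetized with isoflurane and underwent either transverse aortic banding (TAB), which narrows the aorta and overloads the left ventricle, or a sham operation. Left ventricles were sampled at 5 times, on days 3, 5, 7, 14 and 28 counted from the operation, with 1 TAB and 1 sham sample each time and no unoperated sample. No transgene or drug was named for either operation. The sources used here do not say whether a sample held 1 mouse or several. The sample titled TAB day 14 also carries a condition label with 15 days, and the title was followed.

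SLRPs have a core of leucine-rich repeats that curves around collagen, and most carry chondroitin, dermatan or keratan sulfate chains. They set the spacing and thickness of collagen fibrils. Several also bind growth factors of the TGF-β family, and biglycan released from the matrix can act on Toll-like receptors. In the heart they are made mainly by fibroblasts. By sequence, Bgn, Dcn and Aspn belong to class I, Fmod, Lum, Prelp, Omd and Kera to class II, and Ogn to class III.

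Apart from Bgn, the members lie in 3 short gene clusters of the RefSeq annotation of GRCm38.p6. On chromosome 10, Dcn, Lum, Kera and the related gene Epyc are the 4 protein-coding genes of a stretch of 202 kb at chr10:97479500-97681908. On chromosome 13, Ecm2, Aspn, Omd and Ogn follow each other on the plus strand within 120 kb at chr13:49504810-49624501, with gaps of 11.7, 14.9 and 15.4 kb. On chromosome 1, Optc, Prelp and Fmod span 151 kb at chr1:133897193-134048280. Bgn lies alone at chrX:73483601-73495936. These positions are those of the annotation, since probe coordinates were not used here.

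The 250 bases before the annotated start are shown for Bgn and Aspn, the members with the largest TAB effect, and for Ogn, a gene of the same cluster as Aspn whose average did not pass the test. They are RefSeq sequences of GRCm38.p6 on the plus strand, at chrX:73483351-73483600, chr13:49544193-49544442 and chr13:49607765-49608014. Capitals mark matches on either strand to the TATA box, searched as TATAAA. They also mark the GC box, for which the letters searched were GGGCGG. The CCAAT box is marked in the same way.
Bgn: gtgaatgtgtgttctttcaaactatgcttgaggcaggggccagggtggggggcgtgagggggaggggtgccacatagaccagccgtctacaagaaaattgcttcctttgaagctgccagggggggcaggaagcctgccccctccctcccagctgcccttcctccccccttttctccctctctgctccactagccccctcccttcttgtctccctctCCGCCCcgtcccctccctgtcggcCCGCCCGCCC
Aspn: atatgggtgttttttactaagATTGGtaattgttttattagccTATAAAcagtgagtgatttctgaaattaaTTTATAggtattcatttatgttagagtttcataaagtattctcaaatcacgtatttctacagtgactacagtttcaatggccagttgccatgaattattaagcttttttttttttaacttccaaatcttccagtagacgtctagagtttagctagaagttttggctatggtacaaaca
Ogn: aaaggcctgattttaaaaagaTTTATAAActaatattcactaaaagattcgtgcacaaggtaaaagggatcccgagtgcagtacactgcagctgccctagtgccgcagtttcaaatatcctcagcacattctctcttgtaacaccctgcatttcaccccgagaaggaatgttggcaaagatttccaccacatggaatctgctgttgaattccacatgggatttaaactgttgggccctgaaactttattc
The Bgn window was 35.6% A or T and held 3 GC box matches on the minus strand, within 34 bases of the start, the last pair of them overlapping. The Aspn window was 70.0% A or T. It held a TATAAA match from 207 to 202 bases before the start, another on the minus strand from 178 to 173, and a CCAAT match on the minus strand, starting 229 bases before it. The Ogn window was 58.0% A or T and held TATAAA matches from 229 to 224 on the minus strand and from 227 to 222 on the plus strand, which overlap. Searches for TGANTCA (AP-1 site) and CAGACA (SMAD box), run in the same way, found no match in these 3 windows. Among 32851 promoter windows of the same length, 12.4% held TATAAA, 32.7% GGGCGG, 33.8% CCAAT, 6.75% TGANTCA and 17.1% CAGACA.

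Of the 9 members, 8 passed the removal of dim probes and were tested, and 5 of them were higher in TAB averaged over the days. These were Bgn, Aspn, Fmod, Prelp and Lum, by 1.51- to 3.82-fold, and none was lower, also at an unadjusted p under 0.05. Across all 16113 genes, 9.19% were called higher and 7.87% lower by the same test (limma with day as a block, adjusted p under 0.05). In the same 5 members all 5 TAB values lay above all 5 sham values, as in 9.99% of all genes. The log2 ratio, TAB over sham of the same day, was above 0 on all 5 days in these and in Dcn, and in 17.3% of all genes. The median average log2 ratio was 0.63 over the 8 members and −0.03 over all genes. In ventricular tissue, more cells of a type and more RNA per cell cannot be told apart. Each p-value takes the 5 days as replicates, so it measures the spread of the TAB effect over time and arrays rather than over mice. The calls were sensitive to 2 choices. With dim probes kept and set to 1, Bgn and Aspn were called and the other 3 were not, while the averages stayed at 1.12 for Fmod, 0.66 for Prelp and 0.60 for Lum (limma, adjusted p = 0.0503, 0.0619 and 0.0658). In that setting 677 of 19942 genes were called, and 2.3% were called higher. With 1 day left out, the members called were Aspn without day 3, Bgn and Aspn without day 5, Bgn, Aspn and Fmod without day 14, and Bgn, Aspn, Lum and Fmod without day 28. Without day 7 none of the 8 was called (lowest adjusted p 0.0579 by limma), and the calls over all genes dropped from 2749 to 22.

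**Figure D1:**
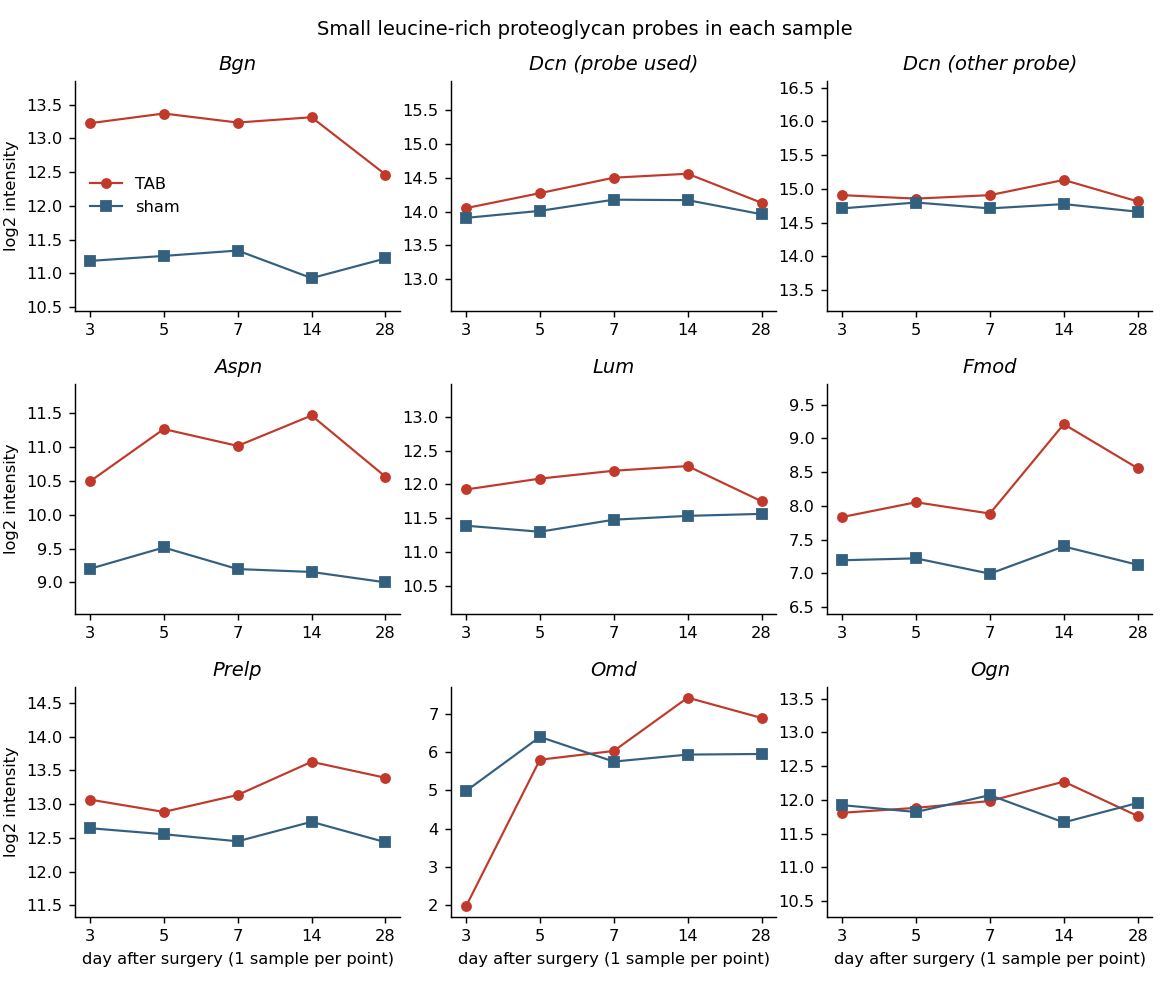
Normalized log2 intensity of the 9 SLRP probes kept, by day after surgery, in TAB (red circles) and sham (blue squares), with 1 sample per point and a log2 axis whose range differs among panels. The TAB points of Bgn, Aspn, Lum, Fmod and Prelp all lie above every sham point of the same panel, whereas those of Ogn and Omd overlap with sham.

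Of class I, Bgn and Aspn were higher in TAB and Dcn did not pass the test. Biglycan, encoded by Bgn (probe mMC006066), usually carries a pair of chondroitin or dermatan sulfate chains. In day order, its normalized intensity in TAB was 9567, 10570, 9633, 10173 and 5650. The sham samples of the same days read 2327, 2450, 2589, 1951 and 2387. The lowest TAB value, that of day 28, was still above every sham value, and the other 4 TAB values lay close together. The log2 ratio was 2.04, 2.11, 1.90, 2.38 and 1.24 on days 3, 5, 7, 14 and 28. Its average was 1.93 ± 0.18 (SE, 5 days), a 3.82-fold difference with a 95% interval of 1.50 to 2.37 on the log2 scale (limma, adjusted p = 0.0116). Among the sham samples themselves, the largest difference between any 2 days was 0.41, which the TAB ratio exceeded on all 5 days.

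Asporin, encoded by Aspn (probe PH_mM_0001256), resembles decorin but carries a stretch of aspartate residues and no chain at the usual site. Its TAB intensities were 1441, 2468, 2077, 2837 and 1514 in day order, against 588, 732, 586, 569 and 512 in sham. The groups did not overlap, and the TAB samples of days 3 and 28 were the lower ones. The log2 ratios were 1.29, 1.75, 1.82, 2.32 and 1.56. Their average was 1.75 ± 0.16 (SE, 5 days), or 3.37-fold, with a 95% interval of 1.35 to 2.15 (limma, adjusted p = 0.0116). The largest sham difference was 0.52.

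Decorin, encoded by Dcn, usually carries a single chain and coats collagen fibrils in most connective tissues. With the probe used for the gene, mMC011564, TAB read 16962, 19784, 23187, 24142 and 17920, and sham 15348, 16494, 18502, 18414 and 15932. TAB was above the sham sample of its own day on 5 of 5 days, but the groups overlapped, since both operations read highest on days 7 and 14. The average log2 ratio was 0.26 ± 0.10 (SE, 5 days), with a 95% interval of 0.02 to 0.50 (limma, adjusted p = 0.119). The second probe, mMR030315, gave 0.19, and its TAB values, from 28808 to 35916, did not overlap with its sham values, from 25920 to 28486. The adjusted p of Dcn fell to 0.0308 when 50 was added to every intensity and to 0.0349 with trend and robust on. On all 5 days the log2 ratio of Dcn was below that of Bgn, by 1.07 to 1.99, and below that of Aspn, by 1.15 to 1.93.

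Of class II, Fmod, Prelp and Lum were higher in TAB, Omd was too dim for a firm value and Kera was not found. Fibromodulin, encoded by Fmod (probe mMC011755), is abundant in tendon and cartilage and takes part in collagen cross-linking. Its TAB intensities were 228, 266, 237, 592 and 377, and its sham intensities 146, 149, 128, 169 and 140. All TAB values exceeded all sham values, and days 14 and 28 were the 2 highest. The log2 ratio was 0.64, 0.83 and 0.89 on days 3, 5 and 7, and 1.81 and 1.43 on days 14 and 28. The average was 1.12 ± 0.20 (SE, 5 days), or 2.17-fold, with a 95% interval of 0.64 to 1.60 (limma, adjusted p = 0.0233).

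Prelp (probe mMC000923), whose basic N-terminal region binds heparan sulfate and which can link basement membranes to collagen, read 8586, 7566, 9006, 12658 and 10742 in TAB. The sham samples read 6402, 6018, 5597, 6838 and 5545. The groups did not overlap, and TAB was again highest on days 14 and 28. The log2 ratios of 0.42, 0.33, 0.69, 0.89 and 0.95 all exceeded the largest sham difference of 0.30. They averaged 0.66 ± 0.14 (SE, 5 days), or 1.58-fold, with a 95% interval of 0.33 to 0.98 (limma, adjusted p = 0.0305).

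Lumican, encoded by Lum (probe PH_mM_0003059), carries keratan sulfate in the cornea and limits the thickness of collagen fibrils. Its TAB intensities were 3891, 4350, 4717, 4948 and 3447, and its sham intensities 2683, 2521, 2854, 2968 and 3029. The lowest TAB and the highest sham value both came from day 28 and lay close to each other, while the other days were clearly apart. The log2 ratio was 0.54, 0.79, 0.73 and 0.74 on days 3 to 14 and 0.19 on day 28, the last of them below the largest sham difference of 0.26. The average was 0.59 ± 0.13 (SE, 5 days), or 1.51-fold, with a 95% interval of 0.28 to 0.91 (limma, adjusted p = 0.0328).

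Osteomodulin, encoded by Omd (probe mMC014447), is known from bone and tooth. Its raw intensity in the TAB sample of day 3 was 3, and the spot was not found there, taking the negative flag of the deposited file as a spot the software could not find. Its other raw intensities ran from 40 to 159, on arrays where the lowest percentile of the spots found ended at 25 to 27. Normalized TAB values were 3.93, 55.6, 65.2, 171 and 118, against sham values of 31.6, 84.0, 53.8, 61.0 and 61.7. TAB was thus above all sham values on days 14 and 28 only. The average log2 ratio was −0.18 ± 0.64 (SE, 5 days; limma, adjusted p = 0.870), and 0.53 without day 3 (adjusted p = 0.385). Keratocan, encoded by Kera (probe mMC018112) and typical of the cornea, was found on 0 of the 10 arrays, with raw intensities from 0 to 10.

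Osteoglycin, the class III member encoded by Ogn (probe mMC005048), is also called mimecan. It read 3587, 3773, 4047, 4940 and 3470 in TAB and 3881, 3616, 4301, 3250 and 3967 in sham. The groups overlapped, and both the highest value, in TAB, and the lowest, in sham, came from day 14. The log2 ratios were −0.11, 0.06, −0.09, 0.60 and −0.19. The average of 0.05 had a 95% interval of −0.30 to 0.41 (limma, adjusted p = 0.827), so a 2-fold effect of TAB lay outside the interval. It was 0.18 with median scaling only and 0.15 with normalization within each operation (limma, adjusted p = 0.399 and 0.488). Aspn, of the same cluster, had the higher log2 ratio on 5 of 5 days, by 1.41 to 1.91.

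A single day allows no test, and DE genes of a day were taken as those with an absolute log2 ratio over 2 SDs, the SD being that of all genes on the day. These limits were 1.78, 1.93, 1.75, 1.48 and 1.38 in day order, and genes called up made 3.1%, 4.09%, 4.08%, 3.39% and 3.41% of all genes. Up-regulation on at least 1 day was called for 4 members, against 10.8% of all genes. Bgn was called on days 3, 5, 7 and 14, Aspn on days 7, 14 and 28, and Fmod on days 14 and 28. Omd was called up on day 14, where its ratio of 1.48 just reached the limit (it fell short when quantiles were set to the mean of each rank), and down on day 3, where its TAB spot was not found (2.1% of all genes were called down on that day, and 7.87% on at least 1 day). Just inside the limit stood also Aspn on day 7, at 1.82, and Fmod on day 28, at 1.43, and just outside it Bgn on day 28, at 1.24, and Aspn on day 5, at 1.75. Prelp and Lum, which passed the test over the 5 days, were called on no single day. When 50 was added to every intensity, the down call of Omd on day 3 was lost, its ratio moving from −3.01 to −0.60, and up calls were gained for Aspn on days 3 and 5, Bgn on day 28 and Prelp on days 14 and 28. With dim probes kept and set to 1, the calls were Omd on day 3 and Bgn and Aspn on day 14, and 0 of the members were called on days 5, 7 and 28.

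**Figure D2:**
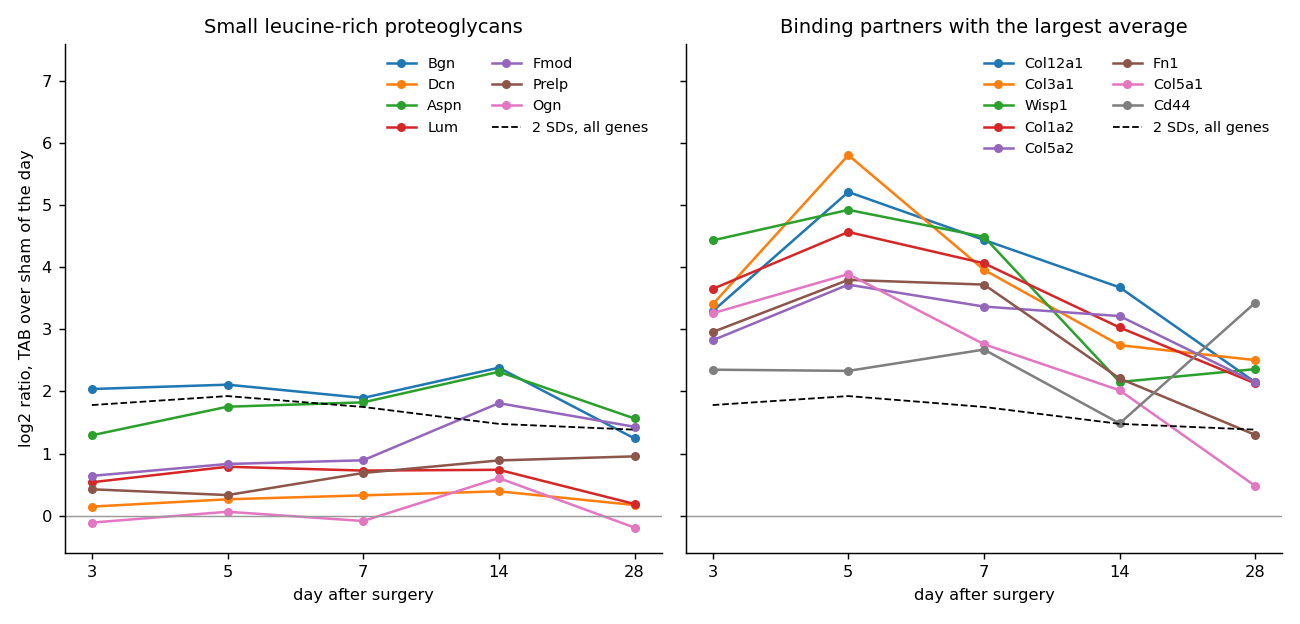
Log2 ratio, TAB over sham of the same day, by day after surgery, for 7 SLRP members (left; Omd left out, since its spot was not found in TAB on day 3) and for the 8 binding partners with the largest average effect (right; Wisp1 and Cd44 were found in no sham sample), each line being 1 gene with 1 sample per operation and day. The dashed line is 2 SDs of all genes; Bgn, Aspn and Fmod cross it and are highest on day 14, whereas most of the partners are highest on day 5.

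The stages were compared next. The TAB effect on days 14 and 28 minus that on days 3 to 7 was 0.83 ± 0.22 (SE) on the log2 scale for Fmod, 0.44 ± 0.21 for Prelp and 0.32 ± 0.33 for Aspn. For Lum it was −0.22 ± 0.25 and for Bgn −0.20 ± 0.38, while Ogn gave 0.25 ± 0.30 and Dcn 0.04 ± 0.20. Omd gave 2.32 ± 1.01, a value that includes the TAB spot of day 3 that was not found. None of the 8 members passed this test (limma, adjusted p from 0.402 to 0.956), nor did any of the 16113 genes, of which 1766, or 11%, had an unadjusted p under 0.05. Of the members, Fmod alone was under 0.05 before adjustment, with an unadjusted p of 0.0132 from limma. The signs for Bgn and Lum rest on day 28, without which both were above 0, at 0.37 and 0.055, and that for Aspn rests on day 14, without which it was −0.060.

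Day 14 stood out among the TAB samples, a pattern noticed after the values were seen. The highest TAB intensity fell on day 14 in 7 of the 8 members, all but Bgn, against 17.6% of all genes, 13.4% of the 1481 genes called higher in TAB and 6 of 26 binding partners. The largest log2 ratio fell on day 14 in 6 of the 8 members, against 20.7% of all genes, 12.4% of the genes called higher and 3 of 26 partners. These ratios also depend on the single sham sample of day 14. It was the lowest sham sample in Bgn and Ogn and the highest in Fmod and Prelp. With median scaling only, the highest TAB intensity fell on day 14 in 5 members, and the largest ratio again in 6. The ratio of day 14 was above that of day 28 in 7 of the 8 members, with Prelp the exception. The same held for 21 of 26 binding partners and 51.6% of all genes. The 4 atrial marker genes were at their lowest summed intensity, 2565, in the TAB sample of day 14 and at their highest, 9991, in the sham sample of day 14, and all 4 were lower in TAB on that day. The part of atrial tissue in the day 14 values was not tested.

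Of the other 9 genes of the family, 0 were called higher in TAB by limma, none of them even at an unadjusted p under 0.05, and 1 was called lower. Their median average log2 ratio was −0.15. Chadl, a chondroadherin-like gene, read 64.9, 64.3, 52.5, 57.9 and 66.0 in TAB and 86.7, 83.1, 75.2, 78.3 and 83.6 in sham, so that every TAB value lay below every sham value. Its average was −0.42 ± 0.10 (SE, 5 days; limma, adjusted p = 0.0369). The other Chadl probe was found on no array and was removed. Chadl was not called with any 1 day left out, nor with dim probes kept and set to 1. The calls over all genes dropped in each of these settings except the one without day 28. Chad, which encodes the cartilage protein chondroadherin, read 159 to 229 in TAB and 237 to 299 in sham, without overlap, as did 7.76% of all genes in that direction, with an average of −0.46 (limma, adjusted p = 0.0553). The cluster neighbours gave −0.17 for Ecm2, 0.00 for Epyc and −0.07 for Optc, and Podn gave −0.23 and Podnl1 0.02, none past the test. Tsku, with a spot found on 7 of 10 arrays, gave 0.52, and its log2 ratios were 1.38, 1.23, 0.66, 0.16 and −0.83 in day order. Its late minus early effect of −1.42 did not pass the test (limma, unadjusted p = 0.0161, adjusted p = 0.408). Nyx was found on 1 array only.

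**Figure D3:**
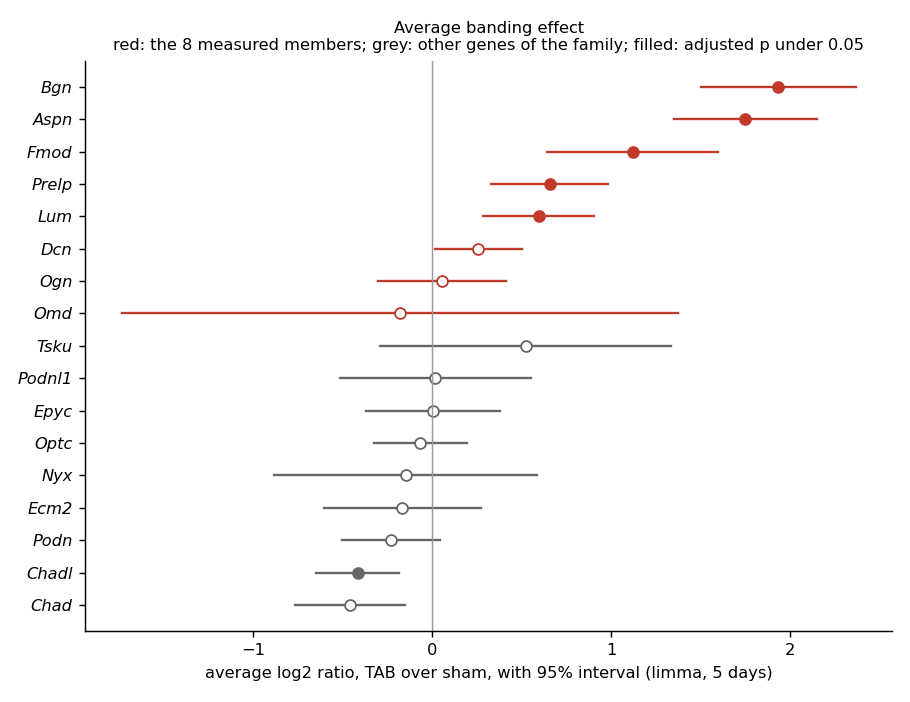
Average log2 ratio, TAB over sham, over the 5 days with its 95% interval from limma, for the 8 SLRP members tested (red) and the 9 other genes of the family (grey), filled where the adjusted p was under 0.05. Bgn, at 1.93, and Aspn, at 1.75, lie farthest to the right; Omd has the widest interval, and Chadl is the filled point to the left of 0.

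The enzymes that build and modify SLRP chains were followed in a list of 29 genes, of which 27 were tested. Of these, 7 were higher in TAB and 1 lower, against 9.19% and 7.87% of all genes, and the median average log2 ratio was 0.39. The chondroitin polymerizing factors Chpf2 and Chpf averaged 1.16 and 0.99 (limma, adjusted p = 0.0251 and 0.0383). The largest difference between sham samples was 1.50 for Chpf2, and its TAB ratio exceeded that on 2 of 5 days. For Chpf the groups overlapped, and the log2 ratio of day 28 was −0.03. Dse and Dsel, the epimerases that turn chondroitin into dermatan sulfate, averaged 0.85 and 0.84, both with an adjusted p of 0.0293. Among the sulfotransferases, Chst14, which acts on dermatan sulfate, averaged 0.66, Chst11 0.58 and Chst3 0.92, the last with its spot found in 3 of 5 sham samples. Chst13 averaged −0.65 with the probe used (limma, adjusted p = 0.0412) and −0.30 with its other probe, which was found on 6 of 10 arrays and whose daily ratios ran from −1.54 to 0.32. With dim probes kept and set to 1, or without day 3, 5 or 7, 0 of these genes were called, and 2 were called without day 14. The calls over all genes dropped from 2749 to 677, 30, 98, 22 and 947 in these settings, in that order.

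The genes of proteins that SLRPs bind, or that process or sense them, made a list of 27. Of the 26 tested, 22 were higher in TAB and 0 lower by limma (1, Tgfb1, was lower at an unadjusted p under 0.05), with a median average log2 ratio of 1.46. Among the collagens that SLRPs coat, the average log2 ratio was 3.68 for Col3a1, 3.49 for Col1a2, 3.06 for Col5a2 and 2.48 for Col5a1. The Col3a1 spot was found in 4 of 5 sham samples and that of Col5a1 in 3 of 5. Col12a1, a collagen on fibril surfaces, was called higher too, but its spot was found in only 1 of 5 sham samples, so its measured average of 3.75 rests mainly on sham spots that were not found. Fn1, which encodes fibronectin, averaged 2.80. Wisp1, a secreted CCN protein that binds decorin and biglycan, and the hyaluronan receptor gene Cd44 were found in all TAB and no sham samples, and both were called higher (limma, adjusted p = 0.0154 and 0.0122). Their TAB mean was at least 11.7-fold and 4.25-fold higher when each sham array was given the lowest intensity of a found spot or the probe's own, if higher. Few found spots are that dim, and against the lowest percentile of the found spots, a floor added after the values were seen, the folds were 6.18 and 1.86. The largest ratio fell on day 5 in 15 of the 26 genes, or 57.7%, and in 1 of the 8 SLRP members, against 20% of all genes and 48.7% of the 1481 genes called higher in TAB. With 1 day left out, 1 gene of the list was called without day 3, 7 without day 5 and 0 without day 7. Col1a1, the remaining fibrillar collagen of the list, had a probe found on no array.

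The genes most like each member were ranked by Pearson's r of log2 intensity over the 10 samples, among 10535 genes found on all arrays. These r values are a description, since the samples share the operation and the arrays. Bgn lay closest to Col14a1 (0.995), Tmem119 (0.994) and Mfap5 (0.992), and Aspn to Cd9 (0.991), Sparc (0.989) and Kif3b (0.984). For Lum they were Skil (0.991), Elovl5 (0.981) and Ltbp2 (0.980). Fmod lay closest to 1500015O10Rik (0.975), Prrg3 (0.969) and Sfrp2 (0.968). Prelp lay closest to Pi16 (0.993), Dock6 (0.983) and then Fmod (0.964), which made Fmod the only member among another member's 3 nearest genes. Dcn reached 0.909 with S100a13, 0.907 with Zmiz1 and 0.901 with Farp1. Ogn reached no more than 0.752, with Rtn1.

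Markers of several cell types were read beside the SLRPs. The 9 ventricular cardiomyocyte markers were found on all arrays and 0 were called by limma (Myl2 read above 65000, at the top of the scale, on 9 of 10 arrays, so its ratios are not informative), with Tnni3 and Ryr2 lower at an unadjusted p under 0.05. Of 6 fibroblast markers tested, 4 were higher in TAB, with Mfap5 at 3.35, Thy1 at 1.77, Ddr2 at 1.19 and Pi16 at 1.01. Tcf21 and Dpt averaged 0.24 and 0.13 and did not pass the test (limma, adjusted p = 0.265 and 0.556). The Ddr2 spot was found in only 2 of 5 sham samples and its groups overlapped, and the other probe of Ddr2, found on all 10 arrays, gave 0.40. The summed intensity of the 6 markers was 5698 to 10262 in TAB and 2695 to 3218 in sham. Of 4 activated fibroblast markers, 3 were higher, with Postn at 3.37, Fap at 1.23 and Comp at 1.18. The Comp groups overlapped, and its log2 ratios were 0.36, 0.51, 1.25, 1.87 and 1.92 in day order. The remaining marker, Acta2, which encodes smooth muscle actin, averaged 0.53 and did not pass the test (limma, adjusted p = 0.284). Its log2 ratios were 0.91, 1.27, 1.22, −0.23 and −0.52 in day order. The sum of the 4 was 7921 to 18139 in TAB and 1609 to 1855 in sham. Cthrc1, an activated fibroblast marker removed from the test, had raw intensities of 206 to 3926 in TAB and of −2 to 6 in sham. Pdgfra, a defining fibroblast marker, was removed too. Its spot was found in the sham samples of days 7 and 14, at raw intensities of 359 and 469, and in 0 of 5 TAB samples, and the other 8 arrays read −6 to 0. The part of fibroblast number in the SLRP values was not tested.

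Markers of other cells moved as well. Of 7 leukocyte markers, 5 were higher and 1, the T cell gene Cd3e, lower. The B cell gene Cd79a averaged −0.49 and did not pass the test (limma, unadjusted p = 0.0113, adjusted p = 0.0577). All of its TAB values lay below all of its sham values. The 7 markers summed to 2445 to 5343 in TAB and 1740 to 2258 in sham. Of 5 markers of valve, tendon and cartilage, where Fmod and Chad are known from, Scx (1.15) and Sox9 were higher, the latter found in all TAB and no sham samples and at least 6.38-fold higher by the same bound (3.34-fold against the lowest percentile of the found spots). That list summed to 593 to 820 in TAB and 244 to 418 in sham, and the cartilage gene Acan was found on 0 arrays. The tendon marker Tnmd averaged 0.76 and did not pass the test (adjusted p = 0.137), with log2 ratios of 0.36, 0.21, −0.05, 1.51 and 1.75. Of 3 adipocyte markers Cfd was higher (0.79), while Adipoq and Plin1 averaged −0.10 and −0.09 and were not called. Of the atrial and skeletal muscle markers, 0 of 4 and 0 of 3 were called, with the atrial Myl7 and Bmp10 lower at an unadjusted p under 0.05. The part of these cells in the SLRP values was not tested.

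**Figure D4:**
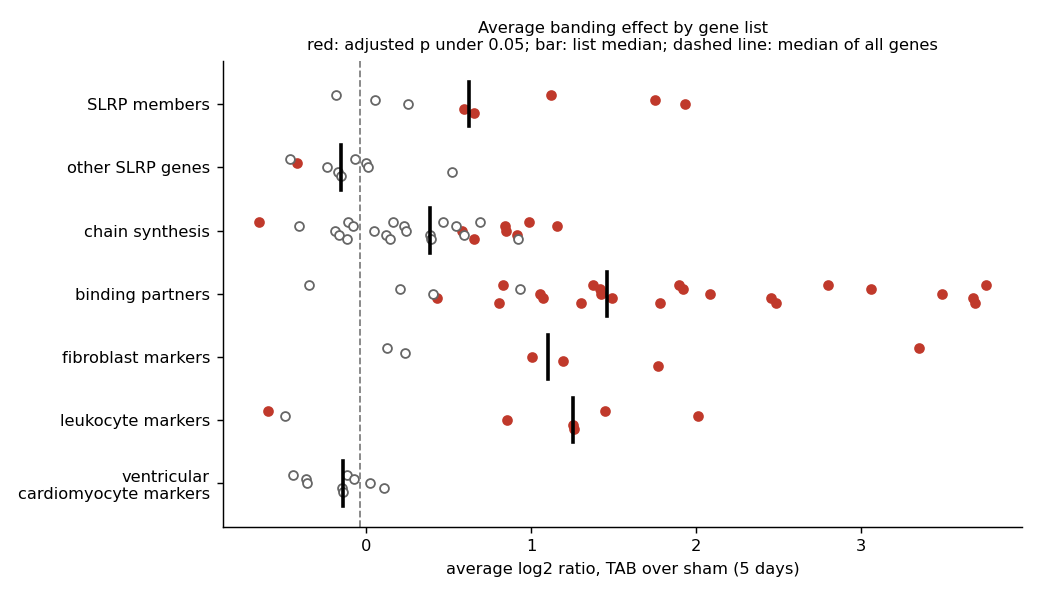
Average log2 ratio, TAB over sham, over the 5 days of each gene of 7 lists, 1 point per gene, in red where the adjusted p from limma was under 0.05; the black bar is the median of the list and the dashed line that of all genes, −0.03. The SLRP members have a median of 0.63, below the 1.46 of their binding partners, and the other genes of the family lie around or below 0, apart from Tsku at 0.52.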

How the data were processed

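Left-ventricle mRNA of 5 TAB and 5 sham samples was measured in 1 colour (Cy5) on an oligonucleotide array. The authors deposited raw intensity per probe, read with GenePix after a background subtraction whose method is not given in the sources used here, together with a detection p-value, which was not used, and a flag. A negative flag was read as a spot not found. The number of arrays limits the precision.

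The arrays were brought to 1 common median, and the 6447 of 26423 probes that then read below 1 in any sample were removed. Quantile normalization used the median of each rank. Where a gene had several probes, the one whose absolute log2 ratios summed highest over the days stood for it. The TAB effect was tested over all 16113 genes with limma 3.58.1 (R 4.3.3; lmFit and eBayes), blocked by day, with a Benjamini-Hochberg adjusted p under 0.05 as the limit, and the scripts were checked on simulated data. Medians of raw intensity ran from 34 to 57 per array and spots not found from 40.2% to 47.3%, with the TAB array of day 3 lowest in the former and highest in the latter. Genes named are the members, the other family genes, up to 8 genes called per list with the largest average, and the 3 nearest genes of each member found on all arrays, not all of which are reported here. The members and lists were chosen with earlier results of these data known. Alternatives covered scaling, normalization, offset, filters, probe choice, thresholds, the block, the variance model and each day left out. Python 3.11.15, numpy 2.4.6, pandas 2.3.3 and matplotlib 3.10.9 were used. The miRNA arrays were not analysed here.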

Additional observations from a re-analysis of the deposited data

Results flagged for a closer look

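The TAB sample of day 28 was set apart from the other 4 TAB samples in Bgn. Its gap to the nearest of them on the log2 scale was 0.841 of the whole range, past Dixon's limit for 5 samples. In Podnl1 the TAB sample of day 5, at 28.5, was set apart from the others, which read 49.2 to 56.2, by 0.803 of the range of log2 intensity. These were 2 of the 34 groups looked at (17 genes in 2 operations), and chance gives such a gap in about 1 in 20 groups.

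Epyc, the class III gene beside Kera, was higher in TAB on days 3, 5 and 7, with log2 ratios of 0.14, 0.38 and 0.21, and lower on days 14 and 28, with −0.25 and −0.45. The effect on the late days minus that on the early days was −0.59 (limma, unadjusted p = 0.0317, adjusted p = 0.423), so the difference did not pass the test.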

How the results depend on the processing

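The 5 members called over the days were called too under the other normalizations, offset, filters and probe choices, except with dim probes kept and set to 1, which left 2 (Bgn and Aspn). In that setting 0 of the other family genes and 0 of the chain genes were called. With 1 day left out, the members called ranged from 0 to 4, the other family genes from 0 to 0, the chain genes from 0 to 9 and the binding partners from 0 to 22. The lowest counts came without day 7, and without day 3 they were 1 member (Aspn) and 1 partner, when the calls over all genes dropped to 22 and 30. Without day 5 there were 2 members and 7 partners, and without day 14 there were 3 members. Over these settings the averages of the 5 called members kept their sign. The count of other family genes called was 2, by the addition of Chad, with 50 added, without the dimmest tertile of genes, with probes not found on any 1 array left out and with trend and robust on. Over all genes, the deviations of a day's TAB and sham samples correlated with r from −0.0165 to 0.113. Dim genes enter these values, so they cannot exclude an effect of the day shared by TAB and sham in brighter genes. With no replicate block, 5 members, 2 other family genes, 12 chain genes and 22 partners were called, and the average of Bgn stayed at 1.93 (adjusted p = 0.000473). The average of Omd turned to 0.16 with 50 added, and with 1 day left out it ran from −0.60 to 0.53 (without day 3) and that of Ogn from −0.083 (without day 14) to 0.12. The late minus early effect with 1 day left out ran from −0.074 to 0.15 for Dcn, turning without day 3 (−0.014) and day 14, from −0.060 to 0.69 for Aspn and from −0.15 to 0.65 for Ogn, both turning without day 14. It ran from −0.77 to 0.37 for Bgn and from −0.50 to 0.055 for Lum, both turning without day 28. Median scaling moved the share of higher genes among all calls from 53.9% to 67.6%, and normalization within each operation to 66.3%. The causes were not tested. Omd lies near background, which limits its ratios.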
